A study of Mus musculus with 60 samples.

Results

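Visceral fat was compared with subcutaneous fat in mice kept on the control diet without NaKtide, using 5 libraries from each depot, chosen by their labels as 10 of the 60 libraries of the study. The study profiled liver and both fat depots by RNA sequencing under 2 diets and with or without NaKtide, a peptide modelled on a stretch of the sodium pump, and its design speaks of 5 mice in each group. The control diet was a chow with 11% fat eaten for 12 weeks, and the groups used for reference below differ by a Western diet with 42% fat, by NaKtide, or by both. NaKtide was expressed from a transgene switched on by doxycycline in the food. The labels do not give the strain, sex or age of the mice, the fat pad that was dissected, whether the animals without NaKtide carried the transgene or ate doxycycline, or the promoter behind the transgene; the series' title speaks of the adipocyte. They also do not say that equal numbers in the depots mean the same mouse, so libraries were compared without pairing unless stated. Each p-value rests on the spread between libraries within groups, pooled over all fat groups of the fit and not over these 10 libraries alone, unless stated.

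White fat is not 1 tissue. Visceral pads lie in the abdominal cavity under a sheet of mesothelial cells, and their progenitors carry transcription factors of that lineage such as Wt1 and Tcf21. Subcutaneous pads lie between skin and body wall, carry limb and trunk patterning factors such as Tbx15, Shox2 and En1, and in mice turn on thermogenic genes more readily. Adipocytes of both depots share the machinery of lipid storage and the hormones leptin and adiponectin.

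Promoters of 4 genes that separated the depots are shown here because these genes include both directions and encode a surface protein and 3 transcription factors. Each is the 250 bases before the RefSeq start (build GRCm38.p6), read 5′ to 3′ on the strand of the gene, with the GC box GGGCGG and the TATA motif TATAAA searched on both strands and set in capitals, CCGCCC and TTTATA being their reverse complements. Upk3b and Tcf21 were higher in visceral fat, and Shox2 and Lhx8 in subcutaneous fat.
Upk3b: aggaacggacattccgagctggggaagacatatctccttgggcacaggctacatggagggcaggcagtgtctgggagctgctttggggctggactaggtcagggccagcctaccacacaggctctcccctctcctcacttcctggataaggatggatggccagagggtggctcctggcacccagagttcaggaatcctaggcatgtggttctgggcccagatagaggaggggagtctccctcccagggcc
Tcf21: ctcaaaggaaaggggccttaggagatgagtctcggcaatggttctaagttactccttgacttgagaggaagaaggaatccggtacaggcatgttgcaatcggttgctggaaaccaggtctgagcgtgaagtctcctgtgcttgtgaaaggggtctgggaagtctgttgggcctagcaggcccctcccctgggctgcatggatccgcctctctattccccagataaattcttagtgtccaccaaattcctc
Shox2: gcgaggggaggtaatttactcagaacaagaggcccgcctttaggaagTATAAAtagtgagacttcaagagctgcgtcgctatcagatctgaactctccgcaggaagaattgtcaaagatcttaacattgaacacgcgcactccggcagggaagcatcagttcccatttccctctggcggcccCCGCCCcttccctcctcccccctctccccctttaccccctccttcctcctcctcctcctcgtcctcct
Lhx8: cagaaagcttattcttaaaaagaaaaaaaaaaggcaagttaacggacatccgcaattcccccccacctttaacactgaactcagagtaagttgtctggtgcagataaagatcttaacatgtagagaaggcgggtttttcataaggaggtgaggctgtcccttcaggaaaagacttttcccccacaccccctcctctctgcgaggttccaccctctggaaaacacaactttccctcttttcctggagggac
They lie at chr5:136038246-136038495 (plus strand), chr10:22820144-22820393, chr3:66981772-66982021 and chr3:154330561-154330810 (all 3 minus strand). The GC box occurs in 32.7% and the TATA motif in 12.4% of 32841 promoters of this length. Shox2 holds 1 match of each, and the other promoters shown hold none of either motif. CG dinucleotides number 2, 5, 11 and 4 in the order shown, against a median of 6 over all promoters.

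Before any depot gene is read, the libraries have to be described, because both groups hold RNA of other tissues and 3 visceral libraries stand apart. Levels below are CPM, counts divided by the library's total after scaling by the trimmed mean of M values. Depth ran from 4583502 to 8068815 counts per library. Summed over 28 adipocyte identity genes, subcutaneous libraries 1 to 5 held 46900, 39900, 45100, 40600 and 44500 CPM, and visceral libraries 1 to 5 held 46700, 41200, 21800, 12800 and 2010 CPM. Visceral libraries 1 and 2 were thus within or near the subcutaneous range, while 3, 4 and 5 were below it. Epididymis and male tract genes summed to 416, 38.3, 22400, 57300 and 22400 CPM in visceral libraries 1 to 5 and to at most 14.0 CPM in any subcutaneous library. Testis and sperm genes summed to 291, 49.6, 1910, 564 and 15200 CPM in the visceral libraries, against 39.9 to 46.5 CPM in subcutaneous fat. Of the 31 epididymis and tract genes found in the files, 10 were at 0 in all subcutaneous libraries and 4 in visceral libraries 1 and 2, and of 23 testis genes 7 and 0 were. Skeletal muscle genes summed to 18700, 61600, 72400, 9390 and 54700 CPM in subcutaneous libraries 1 to 5 and to at most 235 CPM in visceral fat. None of the 24 muscle genes was at 0 throughout subcutaneous fat, and 3 were at 0 in visceral libraries 1 and 2.

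**Figure D1:**
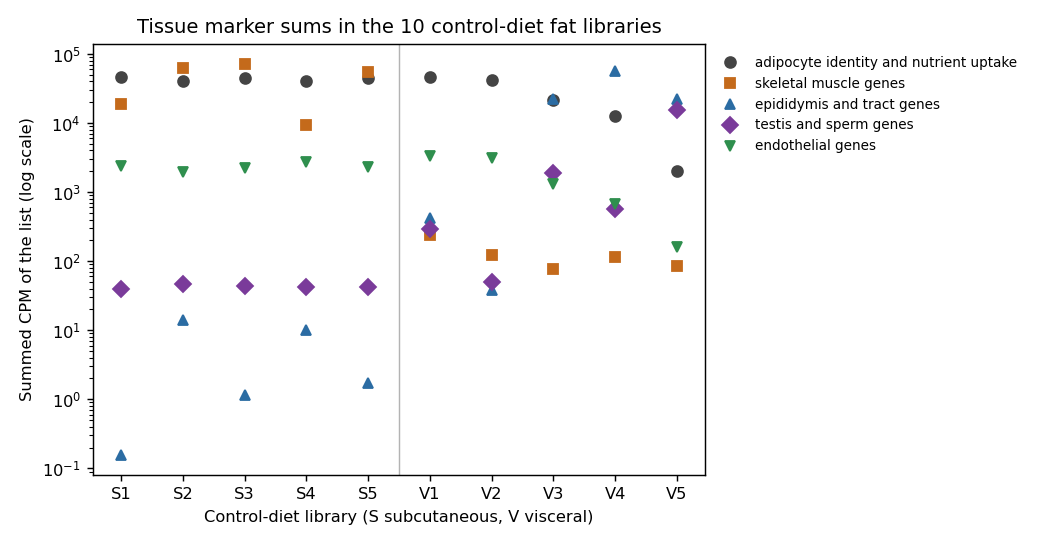
Summed CPM on a log axis of 5 gene lists in each of the 10 control-diet libraries, S for subcutaneous and V for visceral. Adipocyte genes fall from 46700 CPM in V1 to 2010 CPM in V5, tract and testis genes are high in V3, V4 and V5, and muscle genes are high in all 5 subcutaneous libraries.

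Muscle genes and tract or testis genes were therefore set apart, first by fixed lists and then by following those lists within a depot (a correlation of at least 0.7 with the list's sum after centring on group means, and at least a 4-fold range). Each test is given in 2 forms. The 40-library fit uses all fat libraries of the study. The 30-library fit, chosen after the data were seen, leaves out 8 tract-rich visceral libraries, in which tract and testis genes sum to more than 1000 CPM, among them visceral control-diet libraries 3, 4 and 5. It also leaves out 2 libraries of the Western diet with NaKtide, a subcutaneous one above and a visceral one below 10 CPM of the 4 mesothelial genes Msln, Upk3b, Lrrn4 and Upk1b, where each depot otherwise lies on its own side. Both are replicate 1 of that condition, at 66.0 CPM in the library labelled subcutaneous and 2.84 CPM in the library labelled visceral, so each goes against its label by these genes. Their labels were kept wherever the 40-library fit is used, and whether the 2 were exchanged was not tested. The 30-library fit compares 5 subcutaneous with 2 visceral control-diet libraries. Of visceral fat on the Western diet with NaKtide it keeps 1 library, replicate 4, so its comparison with the other conditions rests in part on that library. In bulk tissue, fewer cells of a type and less RNA per cell cannot be told apart.

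In the 40-library fit 4842 of 17788 genes differed between depots at an adjusted p under 0.05 by edgeR's quasi-likelihood test (27.2%), 3539 higher in visceral fat (19.9%) and 1303 lower (7.33%). Genes set apart as tract or testis made up 2298 of the higher calls, and genes set apart as muscle 245 of the lower calls. The fixed epididymis, testis and muscle lists held only 26, 22 and 23 called genes. The other set-apart calls were genes that followed a list, and need not be particular to that tissue. With all set-apart genes left out, 2288 calls remained among 14549 genes (15.7%), 1236 higher (8.5%) and 1052 lower (7.23%). Without visceral library 5 the calls fell to 1740 in all and 751 among genes not set apart. Without visceral library 1 or 2 the latter count was 3926 or 3969, and without subcutaneous library 2 it was 1494. The 5 libraries of one depot lay wholly above those of the other for 1084 of all genes tested (6.09%) and 602 of the 14549 genes not set apart (4.14%).

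In the 30-library fit 67 of 18373 genes differed (0.365%), 54 higher in visceral fat (0.294%) and 13 lower (0.0708%), with 1971 at an unadjusted p under 0.05. Of genes in both fits, 14 of 53 higher calls were set apart as tract or testis and 1 of 13 lower calls as muscle. That left 39 higher and 12 lower calls not set apart. Visceral library 1, which this fit keeps, held 706.9 CPM of tract and testis genes. The count of 67 depends on the second removal. Without the 8 tract-rich libraries alone, 3 genes passed (1822 at an unadjusted p under 0.05), and with the 7 control-diet libraries fitted by themselves 22 did. The 2 further libraries were removed by their levels of depot markers, so the 30-library calls rest on this choice. Leaving out 1 control-diet library at a time gave between 30 and 103 calls. Of the 1236 higher calls not set apart, 1021 kept their sign and 26 were called again, and of the 1052 lower calls 1050 kept their sign and 10 were called again. The median log2 difference of these higher calls went from 1.07 to 0.24 and that of the lower calls from -1.16 to -0.59. Leaving out 1 more library, a subcutaneous one of the NaKtide control-diet group with the most muscle RNA, gave 511 calls, and the balance turned to 159 higher and 352 lower. It also turned with the 7 control-diet libraries by themselves, at 8 higher and 14 lower.

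**Figure D2:**
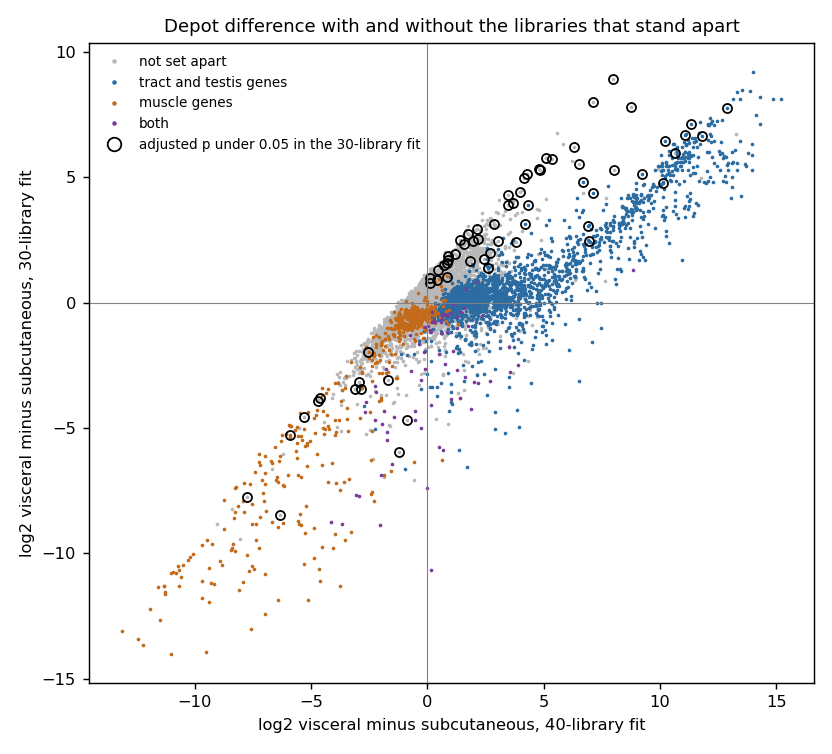
Log2 difference between visceral and subcutaneous fat for each gene, with the 40-library fit on the horizontal axis and the 30-library fit on the vertical axis, both on the log2 scale. Blue points are genes set apart as tract or testis, orange genes set apart as muscle, purple genes set apart as both, and grey all others. Circles mark genes past adjusted p 0.05 in the 30-library fit. Many tract genes lie to the right of 0 on the horizontal axis and near 0 on the vertical one, the most raised of them are high on both, muscle genes lie at the lower left, and the circled genes, most of them not set apart, have the same sign in both fits.

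Mesothelial genes were mostly higher in visceral fat. Over all genes tested 19.9% were higher and 7.33% lower in the 40-library fit, and over genes not set apart 8.5% and 7.23%, the background for every list. Of 24 mesothelial genes, 15 were higher and 1 lower in that fit (11 and 1 of the 20 not set apart), and 8 were higher and none lower in the 30-library fit, with median log2 differences of 4.22 and 3.49 against 0.13 and 0.01 over all genes. Msln, Upk3b, Upk1b and Lrrn4 are on this list and chose the 2 libraries removed by their mesothelial level. That removal narrows the spread of these genes, so the 30-library count is no independent support, and it was not made without them. Upk3b, a uroplakin of the mesothelial surface (chr5:136038496-136046487), stood at 0, 0.551, 0, 0 and 0 CPM in subcutaneous libraries 1 to 5 and at 15.7, 31.2, 6.45, 5.52 and 5.1 CPM in visceral libraries 1 to 5. Every visceral library was above every subcutaneous one. The log2 difference, visceral minus subcutaneous with its standard error as in all values below, was 7.1 ± 1.69 (adjusted p = 0.0058), and 7.99 ± 0.77 (adjusted p = 1.6e-06) with 30 libraries, where the removal of libraries had used this gene and Msln, Upk1b and Lrrn4 in another condition.

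Msln encodes mesothelin, a membrane protein of the same cells. It was at 0, 1.93, 0, 0.139 and 0.212 CPM in subcutaneous fat and 6.3, 19.5, 3.76, 5.71 and 2.42 CPM in visceral fat, so that the highest subcutaneous library, 2, came close to the lowest visceral one, 5. The difference was 4.27 ± 1.36 (adjusted p = 0.021) and 5.15 ± 0.84 (adjusted p = 0.0023) in the 2 fits. Without subcutaneous library 1 or 3 the first value lost its call at adjusted p = 0.051 and 0.052. Slpi, a secreted inhibitor of leukocyte proteases, was at 1.24, 0, 0.382, 0.139 and 0 CPM against 14.9, 30.5, 5.73, 12.1 and 6.38 CPM, also with no overlap. It differed by 5.1 ± 1.31 (adjusted p = 0.0078) and 5.78 ± 0.63 (adjusted p = 7.8e-06).

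Upk1b, another uroplakin, was at 0, 0, 0, 0.139 and 0.212 CPM in subcutaneous fat and 2.16, 4.8, 2.15, 86 and 23.4 CPM in visceral fat. Its highest values were in tract-rich libraries 4 and 5, and the difference went from 8.03 ± 1.68 (adjusted p = 0.0032) to 5.28 ± 0.85 (adjusted p = 0.002) without them. The epithelial keratin Krt19, which mesothelium shares with duct epithelium and which followed the tract lists, was at 9.72, 10.4, 98.4, 158 and 124 CPM in visceral fat against 0, 1.65, 1.14, 0.831 and 0.425 CPM. Its difference of 6.68 ± 1.38 (adjusted p = 0.0029) became 3.7 ± 1.04 (adjusted p = 0.12). Per transcript length, the deposited FPKM values of visceral libraries 1 and 2 averaged 15.7 for Slpi, 5.42 for Upk3b and 4.98 for Msln.

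Among 11 tested factors of visceral fat patterning, 4 were higher and 1 was lower in the 40-library fit (3 and 1 of the 9 not set apart), and 2 and 1 in the 30-library fit. The lower gene was Lhx8, described with the subcutaneous factors. Wt1, the zinc finger factor of mesothelium and visceral fat progenitors (chr2:105126529-105173616), had no count in any subcutaneous library and 4.14, 3.66, 0.717, 0.736 and 28.8 CPM in visceral libraries 1 to 5. Library 5 was far above the others, and libraries 3 and 4 were the lowest. With 289 counts against 0, Wt1 was at least 79.1-fold higher in visceral fat, taking 3 counts over the subcutaneous group as the floor, and at least 34.9-fold higher in visceral libraries 1 and 2. The fitted differences, which for such a gene depend on the default prior count of the fit, were 8.77 ± 2.14 (adjusted p = 0.0079) and 7.79 ± 0.79 (adjusted p = 0.00043).

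Tcf21, a helix-loop-helix factor of the same progenitors (chr10:22817281-22820174), was at 0, 0, 0, 0 and 0.212 CPM in subcutaneous and 1.62, 3.31, 8.6, 5.71 and 6.13 CPM in visceral libraries. All visceral libraries exceeded the 1 subcutaneous library with a count, and the difference was 6.52 ± 1.5 (adjusted p = 0.0058) and 5.52 ± 0.86 (adjusted p = 0.0047). Hoxb8, on the visceral list, showed the other pattern. It was at 6.68, 6.06, 10.3, 7.9 and 7.86 CPM in subcutaneous fat and 11.5, 10.2, 168, 317 and 124 CPM in visceral fat, high only in the 3 tract-rich libraries, and its difference of 4.02 ± 0.99 (adjusted p = 0.0065), or 3.33 without visceral library 4, became 0.48 ± 0.42 (adjusted p = 0.74).

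Retinoid genes went both ways. Of 15 tested, 4 were higher and 2 lower with 40 libraries, but of the 12 not set apart 1 was higher and 2 were lower, and over all 15 2 were higher and none lower with 30. Aldh1a2, which makes retinoic acid from retinal, was at 0.932, 1.93, 0.763, 1.8 and 1.7 CPM in subcutaneous fat and 4.14, 10.9, 10, 9.2 and 65.8 CPM in visceral fat. The groups did not overlap, and the difference was 3.81 ± 0.64 (adjusted p = 0.0012) and 2.42 ± 0.44 (adjusted p = 0.0063). Aldh1a3, with the same activity, was at 3.11, 4.68, 2.86, 3.32 and 5.31 CPM against 14.9, 14.5, 7.35, 3.68 and 3.06 CPM. Here visceral libraries 1 and 2 were high and 4 and 5 lay within the subcutaneous range, and the difference was 1.18 ± 0.49 (adjusted p = 0.07) with 40 libraries and 1.95 ± 0.45 (adjusted p = 0.049) with 30. The second call ended when any control-diet library but subcutaneous 5 was left out, at adjusted p from 0.076 to 0.33, and without visceral library 4 the first value passed at 1.37 (adjusted p = 0.046).

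Bmp4, a bone morphogenetic protein, was at 4.97, 3.86, 4.58, 4.43 and 5.74 CPM in subcutaneous fat against 9.36, 16.9, 6.45, 3.87 and 2.55 CPM in visceral fat, higher in visceral libraries 1, 2 and 3 only. It differed by 0.73 ± 0.36 (adjusted p = 0.13) with 40 and 1.48 ± 0.3 (adjusted p = 0.021) with 30 libraries. Rspo1, which amplifies Wnt signals, was at 3.57, 1.93, 3.82, 1.66 and 4.89 CPM against 14, 18.4, 5.73, 6.07 and 2.94 CPM with library 5 inside the subcutaneous range, and differed by 1.57 ± 0.62 (adjusted p = 0.056) and 2.35 ± 0.52 (adjusted p = 0.042). Bmp4 and Rspo1 thus passed only with 30 libraries, and were named after their values were seen.

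Penk, the precursor of enkephalin peptides, was at 6.37, 9.64, 6.68, 7.06 and 12.7 CPM in subcutaneous and 21.8, 44.7, 68.6, 33.3 and 107 CPM in visceral fat. The groups did not overlap and differed by 2.7 ± 0.63 (adjusted p = 0.0054) and 1.98 ± 0.38 (adjusted p = 0.013). Ptgis, prostacyclin synthase, was at 1.09, 3.58, 2.86, 3.46 and 2.97 CPM against 11.9, 18.4, 10.9, 5.71 and 6.76 CPM, again without overlap, and differed by 1.95 ± 0.55 (adjusted p = 0.011) and 2.45 ± 0.38 (adjusted p = 0.0016). Col6a5, a chain of collagen VI, was at 0.932, 3.86, 0, 0.554 and 0 CPM against 4.68, 34.6, 17.4, 9.39 and 10.7 CPM, highest in visceral library 2. It was the 1 collagen list member that was higher in visceral fat in both fits, at 3.98 ± 1.27 (adjusted p = 0.021) and 4.4 ± 0.78 (adjusted p = 0.0058). Adcyap1r1, the receptor of the neuropeptide PACAP, was at 24.5, 16.2, 13.7, 17.5 and 20.8 CPM in subcutaneous fat and 89.3, 120, 30.3, 7.55 and 1.91 CPM in visceral fat. Visceral libraries 1 and 2 were the highest and libraries 4 and 5 the lowest of all 10, and the difference was 1.42 ± 0.58 (adjusted p = 0.065) with 40 and 2.49 ± 0.33 (adjusted p = 0.00032) with 30 libraries. Without visceral library 4 or 5 alone the 40-library value passed, at 1.7 (adjusted p = 0.029) and 1.74 (0.025).

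The 30-library values rest on visceral libraries 1 and 2. When library 2 was left out too, the calls of Upk3b, Slpi, Wt1 and Adcyap1r1 held, while those of Msln (adjusted p = 0.088), Upk1b (0.06), Tcf21 (0.063), Aldh1a2 (0.39), Bmp4 (0.43), Rspo1 (0.19), Penk (0.35), Ptgis (0.054) and Col6a5 (0.61) ended. Col6a5 then stood at 2.34 on the log2 scale, and lost its 40-library call without subcutaneous library 3 (adjusted p = 0.054). Bmp4 also lost its call without subcutaneous library 2 or 3 (adjusted p = 0.057 and 0.055), and Rspo1 without any 1 library but subcutaneous 5 (from 0.073 to 0.19). Single libraries moved some 40-library values by more than 1.5-fold without ending a call: without visceral library 5 Wt1 stood at 7.06 and Aldh1a2 at 2.58, without visceral library 4 Upk1b stood at 6.49, and without visceral library 2 Msln stood at 3.55 and Upk3b at 6.46. Without subcutaneous library 2 Msln stood at 6.19, Upk3b at 9.52 and Col6a5 at 5.16, without subcutaneous library 1 Slpi stood at 6.45, and without subcutaneous library 5 Tcf21 stood at 8.18.

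**Figure D3:**
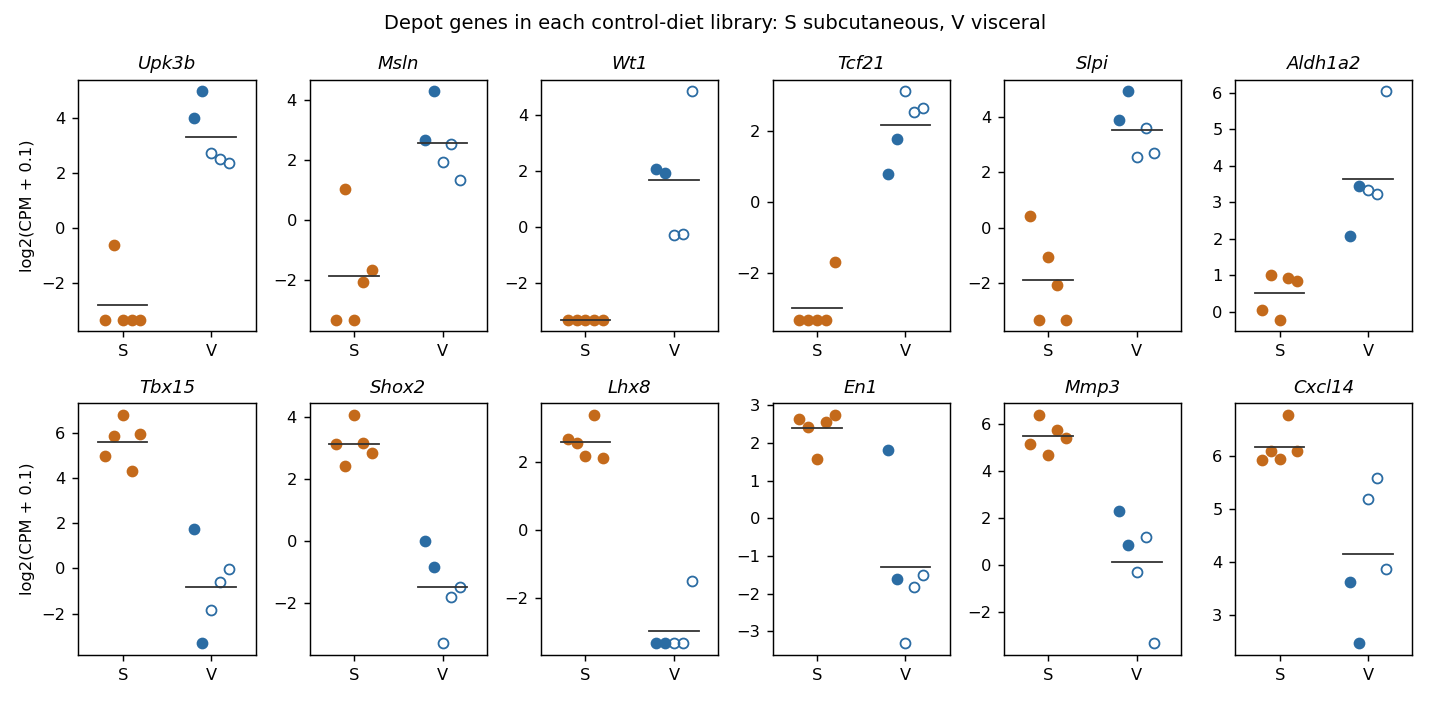
Expression of 12 depot genes, as log2(CPM + 0.1), in each of the 5 subcutaneous (S, orange) and 5 visceral (V, blue) control-diet libraries; hollow points are visceral libraries 3, 4 and 5 and bars are group means. In the upper row every gene is higher in visceral fat, and in the lower row every gene is lower, with 1 visceral library of En1 at 3.42 CPM among the subcutaneous values.

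Factors of subcutaneous patterning went the other way. Of 20 tested, none was higher and 7 were lower in visceral fat in the 40-library fit (6 of the 18 not set apart), and 3 were lower in the 30-library fit, with medians of -0.93 and -0.63. Tbx15, a T-box factor of subcutaneous progenitors and of muscle (chr3:99240381-99354259), was at 31.1, 58.4, 110, 19.7 and 61.8 CPM in subcutaneous and 3.24, 0, 0.179, 0.552 and 0.893 CPM in visceral libraries. The groups did not overlap, and the difference was -5.88 ± 1.24 (adjusted p = 0.0032) and -5.29 ± 1.2 (adjusted p = 0.048). It had been set apart because its level followed the muscle list among subcutaneous libraries. On the Western diet, where subcutaneous libraries held 96.7 to 309.9 CPM of muscle genes, it stood at 14.3 CPM ± 3.46 (SD, n = 5) in subcutaneous and 0.149 CPM ± 0.279 in visceral fat, a log2 difference of -6.32 (adjusted p = 0.011).

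Shox2, a homeobox factor of the limb (chr3:66971727-66981771), was at 8.54, 5.23, 16.6, 8.73 and 7.01 CPM in subcutaneous fat and 0.9, 0.457, 0, 0.184 and 0.255 CPM in visceral fat. No libraries overlapped, and it differed by -4.61 ± 0.92 (adjusted p = 0.0025) and -3.8 ± 0.59 (adjusted p = 0.0016). Lhx8, a LIM homeobox factor also used as a brown fat marker, stands on the list of visceral factors and went against it (chr3:154306294-154330659). It was at 6.21, 5.78, 4.39, 10.3 and 4.25 CPM in subcutaneous fat against 0, 0, 0, 0 and 0.255 CPM. With 178 counts against 2, the ratio was 108-fold (95% counting interval 29.6 to 902), and the fits gave -6.35 ± 1.36 (adjusted p = 0.0034) and -8.47 ± 1.31 (adjusted p = 0.0016). The noncoding transcript AI606473, on the opposite strand 161 bases from Lhx8, had 108 counts in subcutaneous fat and none in visceral fat. It was named after its values were seen.

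Gsc, the goosecoid homeobox factor, was at 5.44, 5.78, 4.77, 10.1 and 7.01 CPM in subcutaneous and 1.08, 0.229, 0.179, 0 and 2.17 CPM in visceral fat. The groups were separate, at -3.12 ± 0.77 (adjusted p = 0.0065) and -3.44 ± 0.61 (adjusted p = 0.0058). En1, which marks dermal and subcutaneous progenitors of the trunk, was at 6.06, 5.23, 2.86, 5.82 and 6.59 CPM against 3.42, 0.229, 0, 0.184 and 0.255 CPM, with visceral library 1 inside the subcutaneous range. Its difference was -2.71 ± 0.95 (adjusted p = 0.033) and -1.61 ± 0.73 (adjusted p = 0.41), and without visceral library 1 the 40-library value was -4.8. Leaving out any of the other control-diet libraries except subcutaneous 3 ended its call, at adjusted p from 0.053 to 0.11.

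Tbx5 and Irx2 passed only with 30 libraries and were named after their values were seen. Tbx5, a T-box factor of the forelimb and heart, was at 0.932, 1.1, 0.763, 1.66 and 0.85 CPM in subcutaneous and 0, 0, 0.179, 0.184 and 1.79 CPM in visceral libraries, with library 5 above all subcutaneous ones. Its difference was -1.22 ± 0.83 (adjusted p = 0.28) with 40 and -5.95 ± 1.19 (adjusted p = 0.021) with 30 libraries, and without visceral library 5 alone it was -3.43 (adjusted p = 0.023). Irx2, a homeobox factor, was at 7.61, 3.31, 2.67, 5.4 and 9.56 CPM against 0.18, 0.229, 8.06, 2.21 and 4.98 CPM, far below the rest only in visceral libraries 1 and 2. It differed by -0.87 ± 1.01 (adjusted p = 0.55) and -4.67 ± 1.06 (adjusted p = 0.047), and the second call ended without any 1 of the 7 libraries (adjusted p from 0.052 to 0.46).

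Hox genes, which record position along the body, varied within each depot as well as between them. Of 24 tested, 8 were higher in visceral fat with 40 libraries and none lower, 3 of the 8 being among the 17 not set apart, and with 30 libraries none of 23 passed. Hoxc8 was at 95.2, 48.7, 83, 70.6 and 88.6 CPM in subcutaneous and 115, 128, 62.2, 25.8 and 2.94 CPM in visceral fat and differed by -0.21 ± 0.48 (adjusted p = 0.77) and 0.65 ± 0.32 (adjusted p = 0.47). Hoxc9 was at 14, 1.38, 23.1, 16.2 and 15.1 CPM against 26.5, 9.14, 11.8, 5.89 and 1.15 CPM and differed by -0.37 ± 0.56 (adjusted p = 0.65) and 0.33 ± 0.64 (adjusted p = 0.89). For both genes the groups overlapped and the sign turned between the fits. Hoxa5 was at 7.92, 11.3, 12.4, 6.79 and 10.8 CPM against 10.4, 13.5, 7.35, 5.15 and 1.53 CPM, with differences of -0.37 ± 0.45 (adjusted p = 0.56) and 0.29 ± 0.46 (adjusted p = 0.87).

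Hoxc10 singled out a library in each depot. It was at 19.6, 1.65, 24.8, 15.4 and 22.9 CPM in subcutaneous libraries 1 to 5 and 24.5, 1.26, 1.08, 4.05 and 0 CPM in visceral libraries 1 to 5. Subcutaneous library 2 had the low level of most visceral libraries, and was lowest of its depot in Hoxc9 as well, and visceral library 1 had the level of most subcutaneous ones. The difference was -1.47 ± 0.93 (adjusted p = 0.24) and -0.43 ± 0.8 (adjusted p = 0.89), but -3.44 (adjusted p = 0.01) when visceral library 1 was left out, and -6.44 (adjusted p = 0.0029) on the Western diet. Visceral library 1 also held 1030 CPM of Schwann and nerve genes, against 135 to 385 CPM in the other 9 libraries, and 3.24 CPM of Tbx15, the highest visceral value.

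Several secreted and immune genes were also lower in visceral fat. Mmp3, the matrix protease stromelysin, was at 34.9, 83.5, 25.4, 53.7 and 42.7 CPM in subcutaneous and 4.86, 1.71, 0.717, 2.21 and 0 CPM in visceral fat. The gap was wide and the difference -4.68 ± 0.98 (adjusted p = 0.0032) and -3.92 ± 0.65 (adjusted p = 0.0023). Cxcl14, a chemokine of fibroblasts and skin, was at 60.7, 68.3, 61.6, 110 and 68 CPM against 12.1, 5.37, 36.2, 48.2 and 14.4 CPM. All visceral libraries were lower, and libraries 3 and 4 least so, and the difference was -1.67 ± 0.56 (adjusted p = 0.026) and -3.1 ± 0.47 (adjusted p = 0.0016). Its 40-library call ended without subcutaneous library 4 (adjusted p = 0.068), visceral library 2 (0.056) or visceral library 5 (0.096). Il1r2, the decoy receptor of interleukin-1, was at 2.49, 10.5, 4.01, 3.88 and 7.01 CPM against 0.36, 0.114, 0.179, 0 and 0 CPM, without overlap, and differed by -5.29 ± 0.95 (adjusted p = 0.0015) and -4.56 ± 1.01 (adjusted p = 0.042).

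As for the visceral genes, the 30-library calls of the lower genes rested on few libraries. Without visceral library 2 the adjusted p was 0.36 for Tbx15, 0.064 for Shox2, 0.054 for Lhx8, 0.16 for Gsc, 0.18 for Tbx5, 0.098 for Mmp3, 0.063 for Cxcl14 and 0.36 for Il1r2. Without visceral library 1, Tbx15 stood at -11.63 (adjusted p = 0.086), Tbx5 had an adjusted p of 0.19 and Il1r2 of 0.24. Tbx15 also lost the call without subcutaneous library 1, 2 or 3 (adjusted p = 0.061, 0.075 and 0.1), and Il1r2 without 2, 3 or 4 (0.075, 0.058 and 0.055). In the 40-library fit, calls held but values moved by more than 1.5-fold without visceral library 1 for Tbx15 (-7.07), Mmp3 (-5.38) and Il1r2 (-5.95), and without visceral library 5 for Lhx8 (-8.46) and Gsc (-4.11).

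Thermogenic genes were uneven within subcutaneous fat. Of 20 brown and beige genes tested, 2 were higher and 7 lower in visceral fat with 40 libraries (0 and 5 of the 15 not set apart), and none and 1 with 30, the 1 being Lhx8. Ucp1, the uncoupling protein of thermogenic fat, was at 1.71, 45.2, 84.1, 0.693 and 0.212 CPM in subcutaneous and 0, 0.114, 0, 0.184 and 0 CPM in visceral libraries. Subcutaneous libraries 2 and 3 carried nearly all of it, while subcutaneous library 5 held 1 count, as did visceral libraries 2 and 4. With 622 counts against 2 the ratio was 379-fold (95% counting interval 104 to 3130), the fits gave -8.4 ± 1.8 (adjusted p = 0.0034) and -8.23 ± 3.08 (adjusted p = 0.28), and the Western diet gave -8.82 (adjusted p = 0.0062). Without subcutaneous library 3 the 40-library value was -7.25.

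Cidea, a lipid droplet protein rich in brown and beige fat, was at 38.5, 78.5, 229, 57.6 and 14.7 CPM in subcutaneous and 14.9, 4, 2.51, 4.23 and 4.08 CPM in visceral fat. Visceral library 1 just reached the lowest subcutaneous library, 5, and the difference was -3.82 ± 0.7 (adjusted p = 0.0015) and -3.16 ± 0.87 (adjusted p = 0.12). Without subcutaneous library 3 or visceral library 1 the first value was -3.0 or -4.49, and without subcutaneous library 5 the 30-library value passed at adjusted p = 0.049. The 6 brown fat specific genes summed to 141, 528, 795, 166 and 270 CPM in subcutaneous libraries 1 to 5 and to 15.1 to 79.0 CPM in visceral fat. The muscle sum was also highest in subcutaneous libraries 3 and 2, and its part in these values was not tested.

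The hormones of the adipocyte did not pass in either fit. Adipoq, adiponectin, was at 2360, 2160, 2310, 2100 and 2520 CPM in subcutaneous and 2270, 2050, 1200, 783 and 50.5 CPM in visceral fat. Visceral libraries 1 and 2 were at or just below the subcutaneous range, and library 5 held least, as for the whole adipocyte list. The difference was -0.85 ± 0.44 (adjusted p = 0.15) with 40 libraries and -0.08 ± 0.3 (adjusted p = 0.95) with 30. Lep, leptin, was at 1850, 445, 1080, 1720 and 1680 CPM against 1670, 1810, 692, 433 and 14.8 CPM and differed by -0.55 ± 0.63 (adjusted p = 0.53) and 0.36 ± 0.52 (adjusted p = 0.86), with subcutaneous library 2 the lowest of its group. Nnat, neuronatin, an imprinted gene of adipocytes, was at 1810, 829, 1070, 1710 and 2010 CPM against 1470, 1810, 745, 435 and 22.7 CPM, with -0.73 ± 0.51 (adjusted p = 0.29) and 0.14 ± 0.39 (adjusted p = 0.94). For all 3 genes the groups overlapped, and for Lep and Nnat the sign turned between the fits.

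Of 28 adipocyte identity genes none was higher and 5 were lower with 40 libraries (4 of the 27 not set apart), and none passed in either direction with 30, where the median was 0.02. Of 22 genes of fatty acid synthesis, 2 were higher and 6 lower with 40 libraries (0 and 6 of the 20 not set apart), and none passed with 30. Fasn, fatty acid synthase, was at 1210, 4390, 2890, 1830 and 755 CPM in subcutaneous and 1530, 755, 423, 391 and 263 CPM in visceral fat, so that visceral library 1 lay within the subcutaneous range and library 2 at its lower edge. It differed by -1.72 ± 0.49 (adjusted p = 0.013) and -0.95 ± 0.58 (adjusted p = 0.6), and the first call ended without subcutaneous library 2 (adjusted p = 0.055) or visceral library 5 (0.056). Agt, angiotensinogen, an adipokine precursor, went up instead. It was at 94.6, 97.5, 34, 8.59 and 99.8 CPM against 244, 381, 318, 82.5 and 302 CPM, at 1.99 ± 0.73 (adjusted p = 0.041) and 2.23 ± 0.68 (adjusted p = 0.15), and 3.6 (adjusted p = 0.012) on the Western diet. Visceral library 4 lay within the subcutaneous range, and subcutaneous library 4 was far below its group. The control-diet call ended without any 1 library except visceral 1 or 4, at adjusted p from 0.05 to 0.1.

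Collagen, macrophage, MHC class II and lymphocyte lists had more lower than higher members in the 40-library fit. Of 23 fibroblast progenitor genes 4 were higher and 4 lower (1 and 4 of the 20 not set apart). Of 24 Wnt genes 6 were higher and 1 lower (4 and 1 of 21), and of 24 BMP and TGF beta genes 3 and 2 (1 and 2 of 22). Of 26 collagen and crosslinking genes 13 were lower and 1 higher, and with 30 libraries none was lower. Col1a1, a chain of collagen I, was at 490, 2350, 219, 633 and 278 CPM in subcutaneous and 177, 127, 65.6, 84.3 and 24.6 CPM in visceral fat. Subcutaneous library 2 was far above the rest, all visceral libraries were below all subcutaneous ones, and the difference was -3.05 ± 0.59 (adjusted p = 0.0019) and -2.39 ± 0.73 (adjusted p = 0.15). Without subcutaneous library 2 these values were -2.1 (adjusted p = 0.013) and -1.42 (0.36). Col3a1, of collagen III, was at 1100, 2920, 629, 1210 and 687 CPM against 390, 284, 183, 195 and 28.3 CPM, also separate, with -2.6 ± 0.54 (adjusted p = 0.0031) and -1.96 ± 0.59 (adjusted p = 0.14). Dpt, dermatopontin, a matrix protein of adipose fibroblasts, was at 951, 788, 846, 1460 and 1050 CPM against 514, 344, 177, 198 and 5.1 CPM, with -2.04 ± 0.54 (adjusted p = 0.0086) and -1.25 ± 0.37 (adjusted p = 0.13). Fst, follistatin, which binds activins, was at 8.08, 11.8, 4.77, 8.17 and 6.59 CPM against 1.8, 1.49, 0.896, 0.368 and 0.893 CPM, with -2.83 ± 0.55 (adjusted p = 0.0021) and -2.26 ± 0.55 (adjusted p = 0.081). For these 4 genes visceral libraries 1 and 2 were below every subcutaneous library as well.

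Among immune lists, 10 of 23 macrophage genes, 7 of 13 MHC class II genes and 12 of 27 lymphocyte and lymph node genes were lower in visceral fat with 40 libraries, against 0, 1 and 0 with 30. Lymphocyte and lymph node genes summed to 1020, 180, 263, 891 and 251 CPM in subcutaneous libraries 1 to 5, highest in libraries 1 and 4, and to 246, 544, 133, 70.9 and 46.3 CPM in visceral libraries 1 to 5. None of the 19 endothelial genes tested passed in either fit. The sum of the endothelial list was 3360 and 3130 CPM in visceral libraries 1 and 2, above the subcutaneous range of 1970 to 2750 CPM. In the tract-rich visceral libraries 3, 4 and 5 it fell to 1300, 681 and 160 CPM, below that range.

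**Figure D4:**
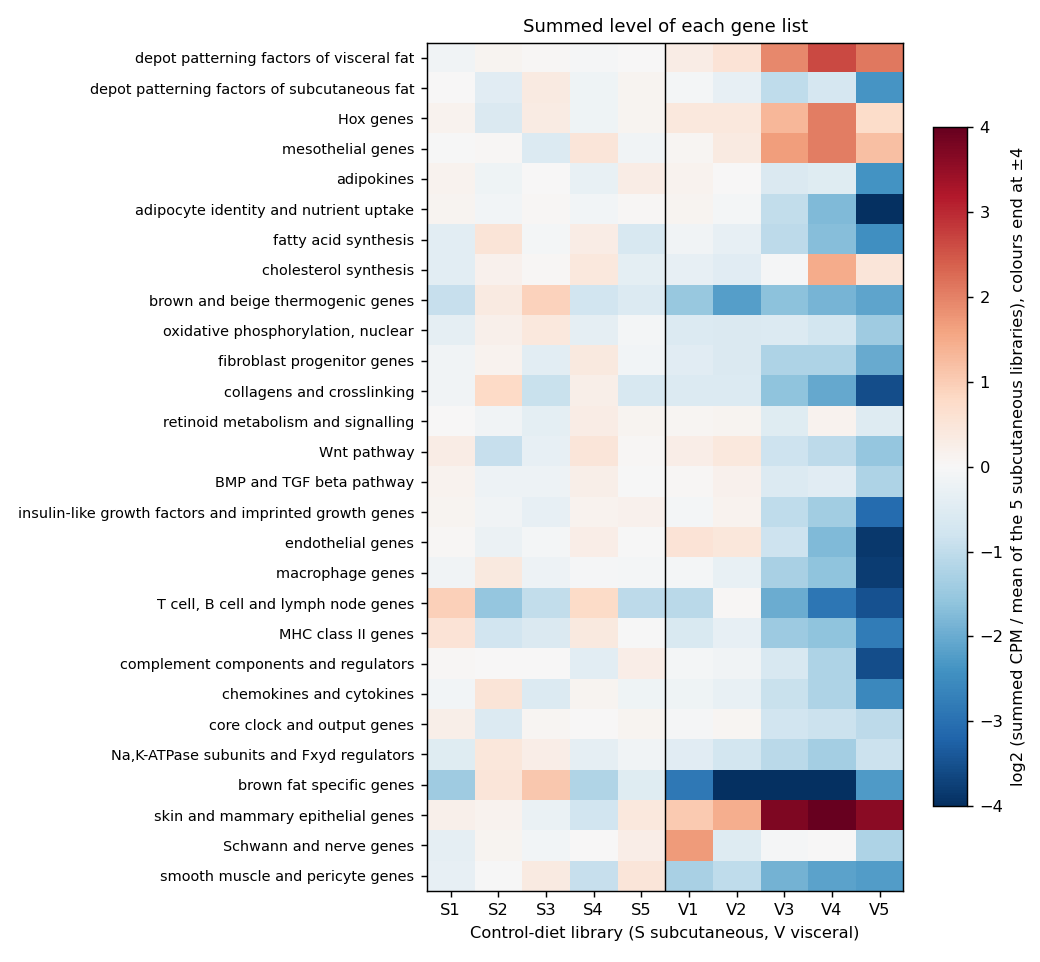
Summed CPM of the gene lists, other than muscle, tract, testis, pancreas and hepatocyte genes, in the 10 control-diet libraries, as the log2 ratio to the mean of the 5 subcutaneous libraries, with red above and blue below that mean and colours ending at 4 in either direction. Visceral libraries V3, V4 and V5 are blue for most adipocyte, stromal and immune lists, and V1 and V2 are near 0 for most of these lists while thermogenic and brown fat lists are blue in all 5.

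Genes of the pathway the study addresses, the Na,K-ATPase and its partner kinase Src, were mixed. Of 13 pump and regulator genes tested, 4 were higher and 3 lower with 40 libraries (2 and 2 of the 8 not set apart), and none passed with 30. Src was at 15.4, 9.36, 8.2, 19.9 and 11.3 CPM in subcutaneous and 22.3, 25.4, 33.5, 26.1 and 42.1 CPM in visceral fat, with every visceral library above every subcutaneous one, and differed by 1.21 ± 0.27 (adjusted p = 0.0039) and 0.88 ± 0.34 (adjusted p = 0.3).

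The control-diet depot difference was then tested against the mean depot difference of the 3 other conditions. In the 40-library fit 5 of 17788 genes passed (0.0281%), 2 of them higher (0.0112%) and 3 lower (0.0169%), with 3183 at an unadjusted p under 0.05, and DESeq2 called 678. Cd209a, a lectin of dendritic cells, was at 7.15, 4.41, 2.86, 7.62 and 8.71 CPM in subcutaneous and 1.8, 1.37, 0.538, 1.1 and 0.383 CPM in visceral fat on the control diet, without overlap. Its depot difference of -2.55 ± 0.41 (adjusted p = 0.0011) compared with 0.02 (adjusted p = 0.98) on the Western diet, and the test of the difference gave -2.37 ± 0.46 (adjusted p = 0.047). C3, complement component 3, was at 518, 649, 470, 541 and 505 CPM against 356, 316, 176, 247 and 67.3 CPM, with the groups separate. In the 40-library fit C3 was lower in visceral fat on the control diet, at -1.21 ± 0.38 (adjusted p = 0.02), and higher on the Western diet, at 1.48 (adjusted p = 0.036). On the Western diet it averaged 1520 CPM ± 582 (SD, n = 5) in visceral and 543 CPM ± 160 in subcutaneous fat. With 30 libraries none of 19 complement genes, C3 among them, passed on the control diet.

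The C3 difference from the other conditions was -2.26 ± 0.45 (adjusted p = 0.047). Neither gene's test passed with 30 libraries, at -1.99 (adjusted p = 0.15) for C3 and -1.71 (0.39) for Cd209a, and leaving out 1 control-diet library gave adjusted p-values from 0.022 to 0.18 for C3 and from 0.022 to 0.16 for Cd209a. Without visceral library 5 the C3 depot difference itself was -0.97 (adjusted p = 0.092). The depot difference of Cd209a was -1.97 ± 0.41 (adjusted p = 0.028) in the 30-library fit, and ended as a call without subcutaneous library 1 or 4 or visceral library 1 or 2 (adjusted p from 0.061 to 0.27). The other 3 genes past the threshold were Trdn, a muscle gene, and the predicted genes Gm9830 and Gm44180. With 30 libraries 4 genes passed, among them Drp2, Hoxa10 and Echdc2.

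Genes called in the 30-library fit mostly had the same sign on the Western diet, whose libraries enter the fit's estimate of spread but not the control-diet means. There 52 of 53 higher and 12 of 13 lower genes kept their sign, and 23 and 6 of them passed there, where 2.08% of all genes passed (1.03% higher and 1.05% lower). The 53 include 14 genes set apart as tract or testis and the 13 include 1 set apart as muscle, and no count was made without them. The Western diet values come from the 40-library fit. It keeps visceral Western library 1, with 1948 CPM of tract and testis genes. Of all genes with a positive control-diet difference 58.4% were positive on the Western diet, and of the 1236 higher 40-library calls not set apart 65.8% were. Of the genes set apart as muscle and called lower on the control diet, 41.2% were negative on the Western diet too. Among all genes with a negative control-diet difference 58.5% were. Upk3b was at 68.1 CPM ± 29.7 (SD, n = 5) in visceral and 0.0786 CPM ± 0.0725 in subcutaneous fat on the Western diet, a difference of 9.53 (adjusted p = 0.0026), and Shox2 was at 0.510 CPM ± 0.262 and 17.0 CPM ± 4.74, a difference of -5.0 (adjusted p = 0.0026). Lhx8 differed less there, at 2.37 CPM ± 1.02 in visceral and 7.15 CPM ± 4.16 in subcutaneous fat and -1.58 (adjusted p = 0.36), but its change between conditions did not pass (adjusted p = 0.14).

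**Figure D5:**
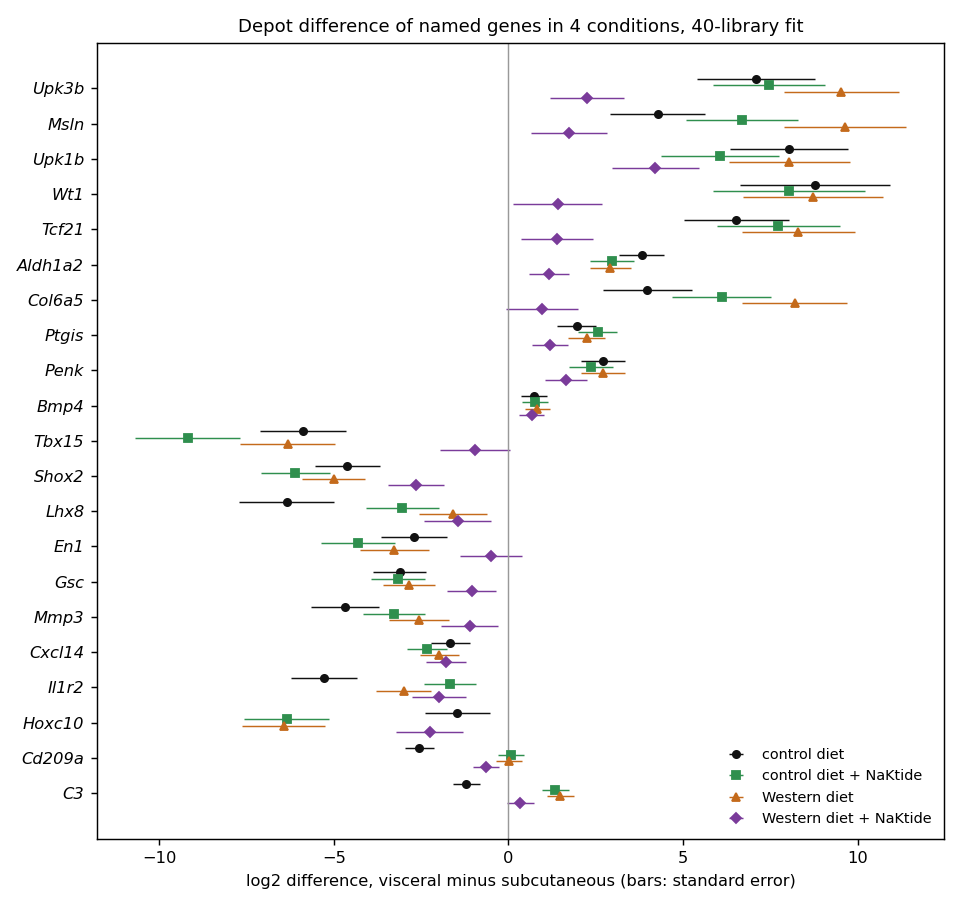
Log2 difference between visceral and subcutaneous fat for 21 genes in each of 4 conditions of the 40-library fit, with bars for the standard error. Most genes lie on the same side of 0 in every condition, values for the Western diet with NaKtide, which include the 2 libraries that go against their depot label, are often nearer 0, and C3 is below 0 on the control diet only.

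The 12 largest rises and 12 largest falls among called genes that were not set apart, separated all libraries and reached 5 CPM also show where setting genes apart fell short. Besides the genes above, the rises included Lrp2, an endocytic receptor of epithelia, the water channel Aqp8 and Abhd11os. Of the 12 falls, Actc1, Nmrk2, Camk2a, Srpk3, Speg and Plpp7 are known from striated muscle, and Barx2 and the genes described above made up the rest. Of the 44 genes described with values, 14 overlap an annotated gene on the opposite strand, among them Tcf21, Tbx15, Il1r2, Dpt and Nnat, and the Hoxc genes overlap Hoxc5 on the same strand. The kit keeps strand, but whether counting used it is not given in the sources used here, so part of their counts may belong to the partner.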

How the data were processed

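RNA sequencing of visceral and subcutaneous fat was analysed from gene counts that the authors deposited as whole, unnormalized read counts for 54232 gene IDs in 60 libraries, 54079 of them with a symbol. Libraries were made with a TruSeq stranded mRNA kit and read as 2 x 50 bases in pairs, per the labels' protocols and the series' design. Trimmomatic 0.38, HISAT2 2.1.0, DESeq2 1.20.0 and the build GRCm38 are named in the submitters' processing notes, whereas the sources used here give neither the counting program nor its strand setting or annotation. FPKM values, which the authors deposited per gene and library, were used only to compare levels between genes. The authors' normalized table was not used, and 0 columns lacked a sample.

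Counts of the 40 fat libraries in 8 groups were fitted with edgeR 4.0.16 (R 4.3.3) by the quasi-likelihood test, after filterByExpr and TMM scaling, which left 17788 genes (common biological coefficient of variation 0.558). P-values were adjusted by the Benjamini-Hochberg method over all genes tested, with a threshold of 0.05, and standard errors are the log2 difference divided by the square root of F. Log2 CPM values behind the set-apart rule and the correlations between libraries used a prior count of 2. Fitted log2 differences kept the default prior count of the fit. Counting intervals are 95% and, like the floor of 3 counts, cover counting error only. Alternatives used DESeq2 1.42.0 and limma 3.58.1. The scripts were tested on simulated data.

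Genes were named by these rules: the 12 largest rises and 12 largest falls past the threshold that separated all libraries, averaged at least 5 CPM in the higher depot and were neither set apart nor predicted genes; up to 3 called members per direction of each list, or the 2 with the smallest p; a fixed set of depot and pump genes; the leading genes of the difference from the other conditions; and the most abundant genes set apart. The text describes a selection of them, some genes are not reported here, and genes that passed only with 30 libraries were added after their values were seen. The members and lists were chosen with earlier results of these data known. Promoters came from a RefSeq table of GRCm38.p6, and gene positions from GENCODE M21 on GRCm38.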

Additional observations from a re-analysis of the deposited data

Results flagged for a closer look

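Of 88 groups of 5 libraries examined over 44 genes, 9 were flagged. Each held a library whose gap to its nearest neighbour was large for the range of its group, and reached at least 5 CPM in its highest library. Groups below 5 CPM, such as En1 in visceral fat, were counted among the 88 but could not be flagged. The 9 are therefore not the number of all groups with a large gap, and are not set against a chance rate. In visceral fat, library 2 was highest for Msln at 19.5 CPM. Library 4 was highest for Upk1b at 86.0 CPM, and library 5 for Wt1 at 28.8 CPM and Aldh1a2 at 65.8 CPM. Library 1 stood out for Cidea at 14.9 CPM and for Hoxc10 at 24.5 CPM. In subcutaneous fat, library 2 stood out for Col1a1 at 2350 CPM and Col3a1 at 2920 CPM, and library 4 for Cxcl14 at 110 CPM.

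The depot difference on the control diet differed from the mean of the other 3 conditions for Cd209a by -2.37 and for C3 by -2.26 on the log2 scale, each at adjusted p = 0.047 by edgeR's quasi-likelihood test, and neither passed with 30 libraries.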

How the results depend on the processing

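Against 4842 calls in all and 2288 among genes not set apart, voom with quality weights gave 381 and 259, a minimum fold of 2 gave 1553 and 205, and the 10 control-diet libraries alone gave 310 and 78. Removing muscle and tract genes before scaling gave 2007 in all. Without the tract-rich libraries 3 and 2 genes passed, 3 and 3 with muscle and tract genes also removed, 249 and 92 by DESeq2, and 22 and 10 with the 7 remaining control-diet libraries alone. The 30 libraries gave 67 and 52, 44 and 44 with muscle and tract genes removed, and 511 and 215 with 29 libraries. Setting genes apart at a correlation of 0.5 left 1514 calls and by the fixed lists only 4771. RLE scaling, no filter on low counts, DESeq2 and removal of mitochondrial genes kept both counts within 1.5 times. The share of calls that were higher was 73.1%, against 47.2% with voom, 50.2% with the replicate block, 64.3% without muscle and tract genes, 38.4% with the 10 control-diet libraries alone, 36.4% with 7, 26.5% by DESeq2 without tract-rich libraries and 31.1% with 29 libraries. Leaving out 1 library gave 1740 to 6694 calls in all and 751 to 3969 among genes not set apart, and 30 to 103 and 14 to 92 with 30 libraries. The cause of these shifts was not tested.

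For the difference from the other conditions, 5 calls became 1 with RLE scaling, with no low-count filter and without mitochondrial genes, 678 by DESeq2, 13 with voom, 71 with the replicate block, 113 without muscle and tract genes and 109 without the 2 other-side libraries. They became 0 without tract-rich libraries (1243 at an unadjusted p under 0.05), 0 with muscle and tract genes removed too (1042), 0 with a minimum fold of 2 (904), 15 by DESeq2 without tract-rich libraries, 3 with 30 libraries and those genes removed, and 9 with 29 libraries. Leaving out 1 library gave 0 to 399, and 0 to 11 with 30 libraries.

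With the replicate number as a block, 1816 genes passed in all and 931 among genes not set apart, and Wt1 (8.42, adjusted p = 0.1), Ptgis (1.89, 0.066) and Cxcl14 (-2.0, 0.052) lost their calls. Deviations of same-numbered libraries correlated at 0.0503, -0.147, 0.0808, -0.293 and -0.28. The highest correlation of each subcutaneous library with a visceral library of another number was 0.204, 0.13, 0.0469, 0.173 and 0.341. These values cannot decide whether equal numbers mean the same mouse, because libraries of a depot also differ in tissue make-up. The numbers are not treated as pairs because the labels do not give them as such.

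Direction turned only for genes that were not called. Lep was 0.12 with voom and 0.32 to 0.37 in the fits without tract-rich libraries (0.36, 0.34), Nnat 0.09 to 0.15 (0.14, 0.12), Hoxa5 0.13 with voom and 0.24 to 0.3 (0.29, 0.27), Hoxc8 0.31 with voom and 0.61 to 0.66 (0.65, 0.63), and Hoxc9 0.22 with voom and 0.28 to 0.37 (0.33, 0.3). Over all fits that left out 1 library, of the 40 or the 30, Lep ran from -0.93 to 0.51, Nnat from -1.14 to 0.27, Hoxa5 from -0.66 to 0.45, Hoxc8 from -0.57 to 0.75, Hoxc9 from -1.01 to 0.93, Adipoq from -1.17 to 0.01 and Hoxc10 from -3.74 to 0.55.

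Genes set apart as tract or testis held 15.5%, 21.1% and 33.3% of counts in visceral libraries 3, 4 and 5, against 2.04% to 2.45% in the other 7. The depot comparison rests on 2 visceral libraries where libraries 3, 4 and 5 are left out. Genes set apart as muscle held 13.0%, 10.4%, 12.4%, 7.69% and 3.94% of counts in visceral libraries 1 to 5, and 10.8% to 29.7% in subcutaneous fat. The listed muscle genes summed to at most 235 CPM in visceral fat, so most of that visceral share came from genes not on the list. Genes shared by fat and the male tract or by fat and muscle cannot be assigned. At 4583502 to 8068815 counts per library, factors near 1 CPM rest on a few counts per library.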

Other observations

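Of 25 nuclear genes of oxidative phosphorylation, 15 were lower in visceral fat and none higher in the 40-library fit (13 of the 14 not set apart), with a median of -0.76 against 0.13 over all genes. Of 22 cholesterol synthesis genes 6 were higher and none lower, but only 2 of the 18 not set apart were higher, where 8.5% of all genes not set apart were. With 30 libraries none of either list passed, and the medians were -0.58 and -0.32. Muscle RNA was high in subcutaneous fat, and tract RNA in 3 visceral libraries, and their part in these counts was not tested.

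Hepatocyte genes, a check for another tissue, summed to 2340, 1760, 2730, 509 and 3850 CPM in subcutaneous libraries 1 to 5 and to 4790, 3050, 2260, 3420 and 79.5 CPM in visceral libraries 1 to 5, and none of the 12 passed in either fit. In subcutaneous and visceral fat they summed to 181 to 549 and 83.7 to 614 CPM on the Western diet. The ranges were 320 to 2150 and 108 to 866 CPM on the control diet with NaKtide. On the Western diet with NaKtide they were 165 to 602 and 1690 to 4060 CPM. The source of this RNA was not tested. With 30 libraries, visceral fat on the Western diet with NaKtide is 1 library, replicate 4. By edgeR's quasi-likelihood test in that fit, the depot difference of Hoxa10 exceeded the mean of the other conditions by 7.54 ± 1.22. It did not pass with 40 libraries (5.08 ± 1.24, adjusted p = 0.062, from 0.026 to 0.22 with 1 library left out), and no gene passed with 30 libraries when subcutaneous library 1 or 5 or visceral library 1 was left out (1372, 1335 and 635 genes at an unadjusted p under 0.05).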
